A study of Homo sapiens with 12 samples.

Results

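FOS, FOSB, FOSL1, FOSL2, JUN, JUNB, JUND and ATF3 encode leucine zipper proteins of the AP-1 transcription factor. They are 8 of the 60641 gene symbols in the deposited count table, were taken by symbol, and all 8 had enough counts to be tested. Their RNA was measured by sequencing in SRA01/04, an immortalised line of human lens epithelial cells, 24 hours after treatment. The 4 groups of 3 libraries each were cells given both 1,2-DHN and asparagine (DHN-A), cells given 1,2-DHN alone (DHN), cells given asparagine alone (NC-A) and cells given neither (NC). 1,2-DHN is 1,2-dihydroxynaphthalene, a metabolite of naphthalene, and the series asks how asparagine changes what it does to lens cells. All groups are the same cell line. The labels do not tie the 3 libraries of a group to separate cultures, so a p-value rests on the spread between libraries, which may be technical. Doses, and whether asparagine came before, with or after 1,2-DHN, were not given in the sources used here.

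AP-1 is a dimer of 2 leucine zipper proteins that binds short DNA elements. JUN proteins can pair with each other or with FOS proteins, whereas FOS proteins need a partner. FOS and FOSB are immediate early genes: growth factors and stress switch them on within minutes through MAP kinases, and their RNA is normally short-lived. FOSL1 and FOSL2 (FRA-1 and FRA-2) lack the strong activation domain of FOS and are made for longer, and ATF3 is a stress-induced relative that often acts as a repressor. On GRCh38, in GENCODE release 29, FOS lies at chr14:75278774-75282230, FOSB at chr19:45467995-45475179, FOSL1 at chr11:65892049-65900573 and FOSL2 at chr2:28392448-28417312. JUN lies at chr1:58780788-58784327, JUNB at chr19:12791496-12793315, JUND at chr19:18279760-18281622 and ATF3 at chr1:212565334-212620777, and all 8 are protein-coding; counts cover their exons as annotated by the authors' gene model, a model not given in the sources used here.

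Total counts ran from 12381071 to 27526206 per library, and mitochondrial transcripts took 2.73% to 3.23% of them. The library NC-A 1 stood apart on the first principal component (33.9% of variance), at -65.1 against -12.5 and -10.4 for NC-A 2 and NC-A 3, so the members' changes that use NC-A are also given without it; the group means include it. Of 16 lens markers 7 were tested; PAX6 reached 30.9 CPM (counts scaled to library size), while FOXE3, CRYAA, MIP and LIM2 stayed at or below 0.386 CPM in every library. The summed level of the 16 lens markers was 49.7 to 53.2 CPM in DHN-A, 62.1 to 67.2 in DHN, 44.4 to 47.2 in NC-A and 47.95 to 50.5 in NC. CRYAB, a small heat shock protein at 0.373 to 12.1 CPM, rose by 3.88 ± 0.226 on the log2 scale in DHN against NC, where PAX6 was at 0.24 ± 0.0721 and SIX3 at -0.21 ± 0.102 (not called). The summed level of 10 fibroblast markers was 1454 to 1518 CPM in DHN-A, 961 to 1017 in DHN, 1499 to 1521 in NC-A and 1705 to 1810 in NC. It was mostly COL1A1 and COL6A3, both collagens, while DCN and LUM were at or below 0.322 CPM in every library. THY1 was at 76.6 to 109.6 CPM, PDGFRB at 27.9 to 46.2, COL1A2 at 26.3 to 52.2 and FAP at 2.60 to 4.73. COL3A1 reached 2.37 CPM and PDGFRA 0.558 CPM. The part of the shifts in lens and fibroblast markers in the AP-1 results was not tested. Summed levels of 10 markers each were between 15.1 and 25.3 CPM for immune cells, 29.2 and 39.3 CPM for keratinocytes and 9.04 and 12.7 CPM for pigment cells over the 12 libraries. Each sum was mostly a single gene: CD74 (11.68 to 22.4 CPM), KRT10 (28.96 to 37.83 CPM) and MITF (5.872 to 9.027 CPM), in that order. The other markers were at or below 2.091 CPM for immune cells, 0.6041 CPM for keratinocytes and 2.804 CPM for pigment cells.

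Promoter sequences show which short elements the members share near their start. RefSeq (GRCh38.p14) gave a window of 250 bases before to 50 bases after the start for 7 of the 8 genes, all but FOSL1. Both strands were searched for the core of the cyclic AMP response element (TGACGT), the AP-1 site (TGANTCA), the JUN-type site (TGACATCA), a heat shock pair (GAANNTTC), the C/EBP-ATF site (TGATGNAA), the TATA element (TATAAA) and the CArG box of serum response factor. The core TGACGT stood in FOS, FOSB, FOSL2 and JUND, 4 of the 7 genes, against 7.98% of all 35116 promoter windows. JUN and ATF3 held TGACATCA instead, which 2.61% of windows hold. The 5 windows below are those of the members that changed most and of FOSL2 and JUN. FOSL2 and JUN were taken because their elements lie at like distances, so that likeness is not a result. Capitals mark every match apart from TATAAA:
FOS, chr14:75278578-75278877, plus strand: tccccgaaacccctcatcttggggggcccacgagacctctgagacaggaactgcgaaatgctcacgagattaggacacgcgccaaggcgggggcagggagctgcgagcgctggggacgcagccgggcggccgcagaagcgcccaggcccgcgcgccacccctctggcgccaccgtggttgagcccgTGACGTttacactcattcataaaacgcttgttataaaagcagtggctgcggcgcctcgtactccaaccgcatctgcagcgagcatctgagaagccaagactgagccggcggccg
FOSB, chr19:45467746-45468045, plus strand: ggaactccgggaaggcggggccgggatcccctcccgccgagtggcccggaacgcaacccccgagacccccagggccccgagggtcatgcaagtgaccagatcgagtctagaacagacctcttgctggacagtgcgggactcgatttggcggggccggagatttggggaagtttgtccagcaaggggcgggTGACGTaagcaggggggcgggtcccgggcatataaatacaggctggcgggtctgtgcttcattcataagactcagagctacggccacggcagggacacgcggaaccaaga
FOSL2, chr2:28392608-28392907, plus strand: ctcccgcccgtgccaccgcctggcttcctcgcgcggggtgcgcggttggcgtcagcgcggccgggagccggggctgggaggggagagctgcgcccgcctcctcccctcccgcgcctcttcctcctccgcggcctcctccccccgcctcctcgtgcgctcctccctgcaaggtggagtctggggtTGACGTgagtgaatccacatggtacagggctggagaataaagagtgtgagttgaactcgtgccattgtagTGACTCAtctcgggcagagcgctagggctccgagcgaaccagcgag
JUN, chr1:58783998-58784297, minus strand: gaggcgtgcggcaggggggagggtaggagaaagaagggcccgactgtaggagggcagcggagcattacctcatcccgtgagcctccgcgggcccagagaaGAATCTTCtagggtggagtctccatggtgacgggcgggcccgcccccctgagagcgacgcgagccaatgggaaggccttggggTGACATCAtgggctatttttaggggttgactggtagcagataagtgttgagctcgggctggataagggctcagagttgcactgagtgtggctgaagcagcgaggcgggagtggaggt
ATF3, chr1:212565157-212565456, plus strand: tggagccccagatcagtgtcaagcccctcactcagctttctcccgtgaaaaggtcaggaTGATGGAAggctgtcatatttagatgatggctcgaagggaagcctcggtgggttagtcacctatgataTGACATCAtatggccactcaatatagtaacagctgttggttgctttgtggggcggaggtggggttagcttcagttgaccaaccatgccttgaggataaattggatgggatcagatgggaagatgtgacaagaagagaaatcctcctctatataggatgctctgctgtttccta

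Counted in bases from the start, TGACGT began at -64 in FOS, -60 in FOSB and -66 in FOSL2, and TGACATCA at -67 in JUN and -123 in ATF3. JUND, whose window is not shown, held TGACGT on either strand at -200, -198 and -87. The matches at -200 and -198 are a single TGACGTCA read on opposite strands. FOS and FOSB also have TATAAA, at -33 and -30, an element of 11.5% of windows; JUNB has it too, at -31, and held no match to the others. FOSL2 has in addition an AP-1 site at 4 (7.71% of windows), JUN a heat shock pair at -150 (6.77%) and ATF3 a C/EBP-ATF site at -191 (3.62%). No CArG box lay in these windows (1.29% of all). Sequence further upstream was not searched, so a CArG box there, in FOS or another member, would have been missed. In GENCODE release 29 FOS and FOSB have 8 annotated starts each, ATF3 7, FOSL2 4 and JUN 1. The window shown for FOS, FOSB, FOSL2 and ATF3 is thus 1 of several. The JUN window, chr1:58783998-58784297, lies wholly inside the JUN gene of that release, chr1:58780788-58784327. The RefSeq start of JUN, from which its distances are counted, is thus downstream of the GENCODE start, whose own upstream sequence was not searched in full. The second entry of ATF3 held none of these elements except TATAAA.

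Levels between genes were compared per length, as TPM, a length-scaled share of each library, from the counts and the deposited gene lengths. In untreated cells the pool was mostly FOSL1 and JUN. FOSL1 averaged 975 ± 33.0 TPM in DHN-A, 864 ± 14.2 in DHN, 928 ± 50.6 in NC-A and 956 ± 7.52 in NC (mean ± SD, n = 3, as below). JUN averaged 625 ± 19.7 TPM in DHN-A, 671 ± 14.3 in DHN, 602.5 ± 20.6 in NC-A and 565 ± 19.8 in NC. Together they made up 74.3% ± 0.528 of the summed TPM of the 8 genes in DHN-A, 65.5% ± 0.811 in DHN, 75.5% ± 0.374 in NC-A and 73.3% ± 0.343 in NC.

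Below them in NC came JUND at 187 ± 6.01 TPM, FOSL2 at 133 ± 6.53, JUNB at 118 ± 4.35 and ATF3 at 110 ± 3.43, each separate from its neighbours over the 3 libraries. FOS, at 5.17 ± 0.584 TPM, and FOSB, at 2.06 ± 0.0614, were last. In DHN the order changed: ATF3, at 248 ± 6.10 TPM, stood next after FOSL1 and JUN, and JUND (183 to 211) and JUNB (162.5 to 199.8) overlapped. In DHN-A the ranges of JUNB, ATF3 and FOSL2 met or overlapped between 111 and 131 TPM, and in NC-A those of FOSL2 and ATF3 between 107 and 117 TPM. These orders depend on the deposited lengths, which run from 1830 bases for JUNB to 7162 for FOSL2.

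FOS and FOSB stayed a small part of the pool even where they were highest. Together they made up 0.260% ± 0.0281 of it in DHN-A, 3.16% ± 0.0706 in DHN, 0.210% ± 0.033 in NC-A and 0.348% ± 0.027 in NC. ATF3 took 5.47% ± 0.0917 in DHN-A, 10.6% ± 0.461 in DHN, 5.47% ± 0.174 in NC-A and 5.30% ± 0.212 in NC. The summed level was 2154 ± 63.0 TPM in DHN-A, 2344 ± 66.3 in DHN, 2027 ± 81.8 in NC-A and 2076 ± 20.7 in NC, a ratio of 1.13 for DHN over NC and 0.919 for DHN-A over DHN. The ratio of the FOS subfamily to the JUN subfamily was 1.165 ± 0.0603 in DHN-A, 1.01 ± 0.0259 in DHN, 1.20 ± 0.0465 in NC-A and 1.26 ± 0.0522 in NC. In DHN it ran from 0.984 to 1.03, on both sides of 1. The ratio of the summed level of NC-A over NC was 0.976, or 0.954 without NC-A 1.

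**Figure D1:**
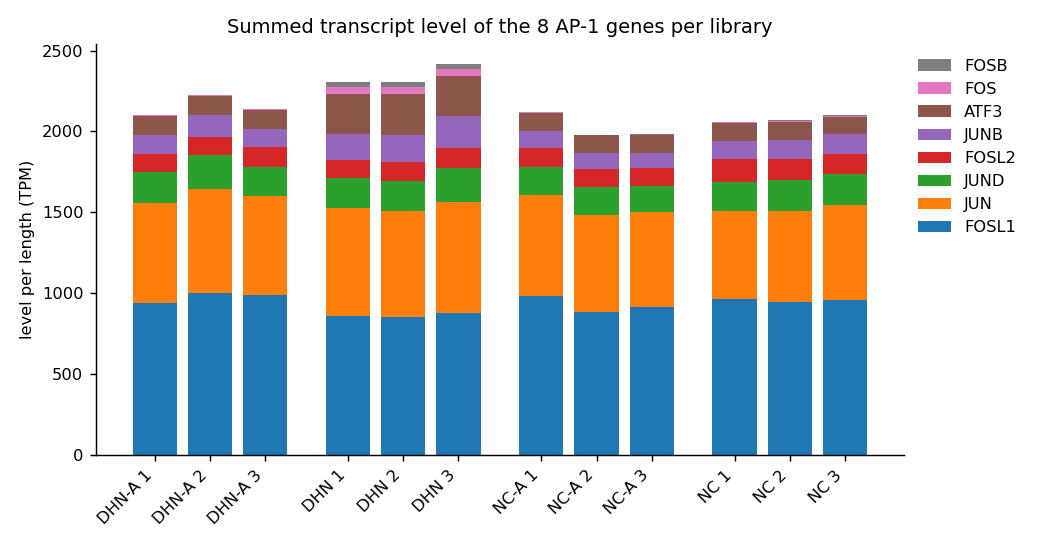
Summed level per length (TPM, y axis) of the 8 genes in each of the 12 libraries (x axis), stacked by gene. FOSL1 and JUN fill most of every bar, and the bars of DHN are the highest, at 2305 to 2420 TPM, with wider bands for ATF3, JUNB, FOS and FOSB.

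DHN against NC shows what 1,2-DHN did without added asparagine. FOSB and FOS rose most, ATF3 rose next, JUNB and JUN rose less, and FOSL1 and FOSL2 fell slightly. Of the 8 members 5 rose and 2 fell (edgeR's quasi-likelihood test, adjusted p under 0.05, here named a call), where 38.7% of all 17889 tested genes were called, 19.7% higher and 19.0% lower. The 3 libraries a group did not overlap for 7 members, as for 46.2% of all tested genes. The comparison covers whole cultures, so fewer cells carrying a transcript and less RNA per cell cannot be told apart. These calls held under all 18 alternatives run.

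FOS had 32.7, 33.5 and 35.2 CPM in DHN, against 3.85, 4.68 and 3.93 CPM in NC. Every DHN library was far above every NC library, and the log2 change was 3.02 ± 0.114 (± SE, as for all log2 changes; edgeR adjusted p = 3.65e-26), or 8.12-fold. FOSB, whose protein can also exist in a truncated form, had 45.8, 39.4 and 44.3 CPM in DHN, against 2.86, 2.80 and 2.999 CPM in NC. The groups did not overlap, and the change was 3.89 ± 0.118 (edgeR adjusted p = 5.22e-30), or 14.9-fold. By size of change in either direction, FOSB had rank 23 and FOS rank 51 among all tested genes. The ratio of FOSB to FOS in TPM was 0.676 to 0.803 in DHN, against 0.343 to 0.438 in NC, without overlap.

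FOSL1, the most abundant member, had 403, 399 and 410.2 CPM in DHN, against 456, 449.7 and 460 CPM in NC. Its groups did not overlap either, but the fall was small, at -0.17 ± 0.0365 (edgeR adjusted p = 0.000129). FOSL2 had 202, 205 and 215 CPM in DHN, against 252, 234.5 and 232 CPM in NC, again without overlap. It fell by 0.21 ± 0.041 on the log2 scale (edgeR adjusted p = 5.28e-05).

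In the JUN subfamily, JUNB, often an antagonist of JUN in growth control, had 74.1, 76.7 and 90.3 CPM in DHN, against 52.3, 54.8 and 56.8 CPM in NC. The groups were separate, and DHN 3 was the highest library; the change was 0.56 ± 0.066 (edgeR adjusted p = 3.96e-08). JUN had 545, 529 and 551.5 CPM in DHN, against 448, 459.5 and 485 CPM in NC. It rose without overlap by 0.22 ± 0.0371 (edgeR adjusted p = 2.54e-06). JUND, the most constantly expressed JUN gene in many cells, had 88.1, 87.8 and 100.7 CPM in DHN, against 87.3, 92.2 and 93.6 CPM in NC. Its groups overlapped and it was not called (0.0205 ± 0.0559, edgeR adjusted p = 0.82); the sign turned without DHN 3 (-0.0471) or NC 1 (-0.0103).

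ATF3 had 245, 254.6 and 244.6 CPM in DHN, against 113, 115 and 109 CPM in NC. No libraries overlapped, and it rose by 1.15 ± 0.0406 (edgeR adjusted p = 2.89e-27), or 2.22-fold. JUNB shares 14.2% of its exon bases with HOOK2 on the opposite strand. With the strand setting of the counting not given in the sources used here, its level is uncertain. HOOK2 itself was at -0.14 ± 0.0697 (edgeR adjusted p = 0.1) in this comparison. The other members share no exon bases with another gene in GENCODE release 29.

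**Figure D2:**
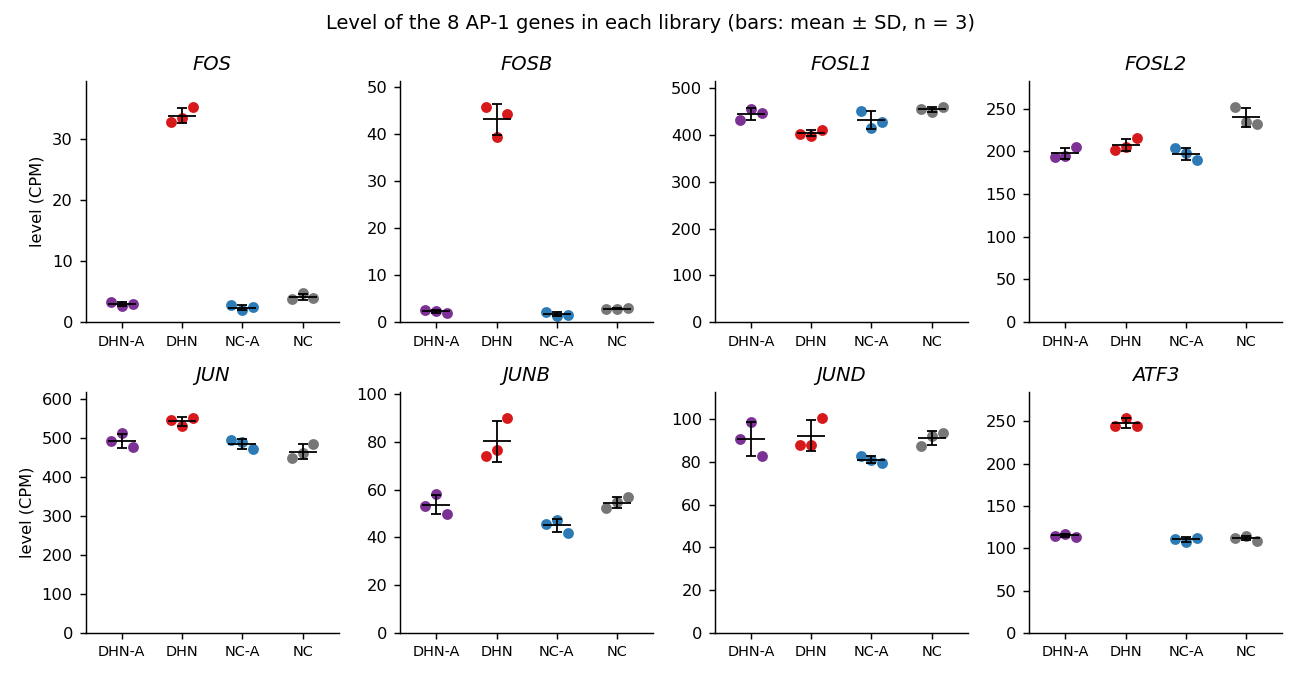
Level in CPM (y axis, from 0) of each of the 8 genes in every library, by group (x axis); bars give mean ± SD of 3 libraries. The DHN points of FOS, FOSB, JUNB and ATF3 stand clear of all other groups, and those of JUN do so by a narrow margin, while those of FOSL1 are lowest and JUND overlaps.

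DHN-A against DHN shows what asparagine did in cells given 1,2-DHN. The members that 1,2-DHN had raised were lower with asparagine, FOSB and FOS most of all, and FOSL1 was slightly higher. Of the 8 members 1 rose and 5 fell, where 41.7% of all tested genes were called, 20.9% higher and 20.8% lower. Libraries did not overlap for 6 members, against 51.3% of tested genes. This comparison shares the DHN libraries with DHN against NC, so opposite signs in the 2 are not independent of each other. The 6 calls held under all 18 alternatives run.

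FOSB had 2.52, 2.41 and 1.98 CPM in DHN-A, against 45.8, 39.4 and 44.3 CPM in DHN. The fall was 4.22 on the log2 scale (-4.22 ± 0.117, edgeR adjusted p = 3.21e-31), 18.6-fold, and rank 11 among all tested genes by size. FOS had 3.31, 2.675 and 2.98 CPM in DHN-A, against 32.7, 33.5 and 35.2 CPM in DHN, without overlap. It fell by 3.50 ± 0.115 (edgeR adjusted p = 2.26e-28), or 11.3-fold. ATF3 had 115, 117 and 114 CPM in DHN-A, against 245, 254.6 and 244.6 CPM in DHN. It fell by 1.11 ± 0.040 (edgeR adjusted p = 8.54e-27), or 2.16-fold, and no libraries overlapped.

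JUNB had 53.2, 58.2 and 50.02 CPM in DHN-A, against 74.1, 76.7 and 90.3 CPM in DHN, and fell by 0.58 ± 0.0647 (edgeR adjusted p = 1.28e-08). HOOK2, on the opposite strand, rose by 0.35 ± 0.0674 in this comparison (edgeR adjusted p = 3.16e-05). JUN had 491, 511 and 476 CPM in DHN-A, against 545, 529 and 551.5 CPM in DHN. Its groups were separate by a narrow margin, and it fell by 0.14 ± 0.0368 (edgeR adjusted p = 0.00206). FOSL1 had 431, 456 and 447 CPM in DHN-A, against 403, 399 and 410.2 CPM in DHN, and rose by 0.14 ± 0.0363 (edgeR adjusted p = 0.00155). FOSL2 (-0.071 ± 0.0409, edgeR adjusted p = 0.168) and JUND (-0.027 ± 0.055, edgeR adjusted p = 0.727) overlapped between the groups and were not called. The sign of JUND turned without DHN-A 3 (0.0275) or DHN 3 (0.0387).

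**Figure D3:**
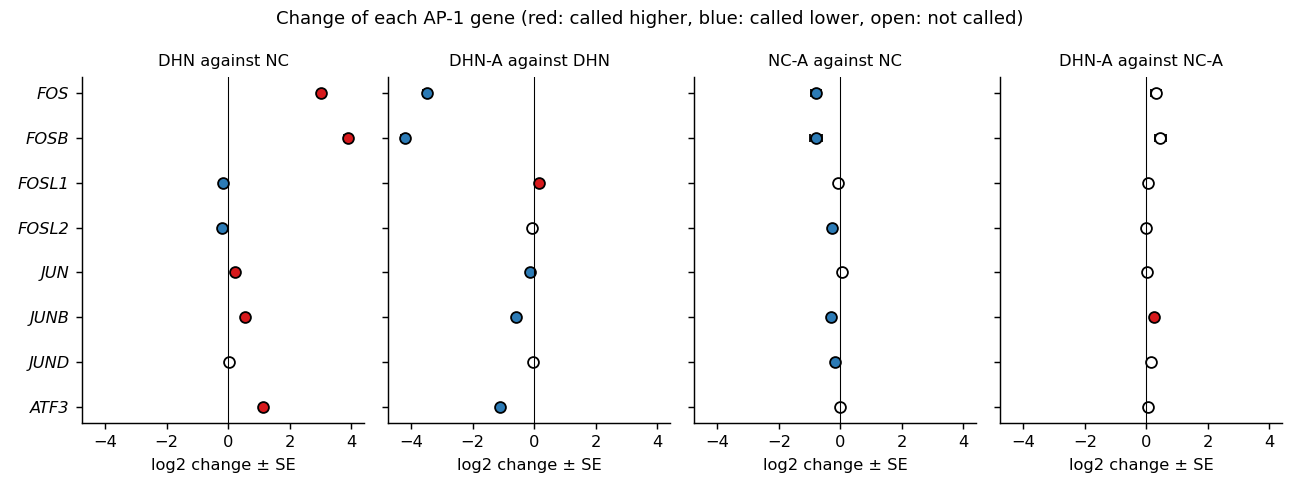
Log2 change ± SE (x axis) of each of the 8 genes (y axis) in 4 comparisons; filled points were called, open points were not. For DHN against NC FOS and FOSB lie beyond 3, for DHN-A against DHN beyond -3, and for DHN-A against NC-A at 0.32 and 0.46.

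NC-A against NC shows what asparagine did on its own. Here 5 of the 8 members fell and 0 rose, where 20.2% of all tested genes were called, 9.32% higher and 10.9% lower. The same 5 did not overlap between the groups (33.7% of tested genes), and FOS and FOSB changed most. FOS had 2.735, 1.96 and 2.47 CPM in NC-A, against 3.85, 4.68 and 3.93 CPM in NC, a change of -0.80 ± 0.165 (edgeR adjusted p = 0.000306). FOSB had 2.14, 1.38 and 1.55 CPM in NC-A, against 2.86, 2.80 and 2.999 CPM in NC, a change of -0.78 ± 0.191 (edgeR adjusted p = 0.00218). Both genes were separate between the groups at a low level, with 19 to 43 counts per NC-A library. Without NC-A 1, which was the highest NC-A library for both, the changes were -0.892 for FOS and -0.969 for FOSB.

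FOSL2 had 204, 198 and 189.6 CPM in NC-A, against 252, 234.5 and 232 CPM in NC, and fell by 0.28 ± 0.0415 (edgeR adjusted p = 1.23e-06). JUNB had 45.75, 47.45 and 41.9 CPM in NC-A, against 52.3, 54.8 and 56.8 CPM in NC, and fell by 0.29 ± 0.0711 (edgeR adjusted p = 0.0042). Without NC-A 1 these changes were -0.305 for FOSL2 and -0.298 for JUNB. JUND had 82.9, 80.7 and 79.4 CPM in NC-A, against 87.3, 92.2 and 93.6 CPM in NC, and was called lower (-0.17 ± 0.0574, edgeR adjusted p = 0.0319). That call was lost with limma-voom (adjusted p = 0.0656), with the replicate number as a block (0.054), and without NC-A 2 (0.0938), NC-A 3 (0.118), NC 2 (0.109) or NC 3 (0.136), in a range of 0.00323 to 0.136 over 18 alternatives; without NC-A 1 it was -0.187 (0.0403). FOSL1 (-0.076 ± 0.0365, edgeR adjusted p = 0.141), JUN (0.060 ± 0.0373, edgeR adjusted p = 0.281) and ATF3 (-0.020 ± 0.0427, edgeR adjusted p = 0.796) overlapped between the groups and were not called. Without NC-A 1, FOSL1 was called lower, at -0.109 (edgeR adjusted p = 0.0478, 0.0478 to 0.449 over 18 alternatives), while JUN was at 0.0448 and ATF3 at -0.0265.

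DHN-A against NC-A shows what 1,2-DHN did where asparagine was present, and it shares no library with DHN against NC. JUNB alone was called among the 8 members, where 2.10% of all tested genes were called, 0.805% higher and 1.29% lower; JUNB and ATF3 did not overlap (18.4% of tested genes). JUNB had 53.2, 58.2 and 50.02 CPM in DHN-A, against 45.75, 47.45 and 41.9 CPM in NC-A, a change of 0.26 ± 0.0698 (edgeR adjusted p = 0.0425). This call was lost in 10 of 18 alternatives, with a range of 0.00033 to 0.272: with limma-voom (0.103), with the replicate block (0.0638), without DHN-A 1 (0.121) or DHN-A 2 (0.248), without NC-A 1 (0.0706), NC-A 2 (0.0615) or NC-A 3 (0.272), and without NC 1 (0.0563), NC 2 (0.0972) or NC 3 (0.0611). FOS was at 0.32 ± 0.168 (edgeR adjusted p = 0.419) and FOSB at 0.46 ± 0.191 (edgeR adjusted p = 0.26), or 0.416 and 0.647 without NC-A 1. ATF3 was at 0.059 ± 0.042 (edgeR adjusted p = 0.613), JUND at 0.16 ± 0.0565 (edgeR adjusted p = 0.149) and FOSL1, FOSL2 and JUN between 0.0039 and 0.043. Without NC-A 1 ATF3 was at 0.066, JUND at 0.181, FOSL1 at 0.0765, FOSL2 at 0.0286 and JUN at 0.0414, and JUNB at 0.275. JUND was called without DHN-A 3 (0.222, edgeR adjusted p = 0.0233) and with no filter on low counts (0.197, edgeR adjusted p = 0.0218). FOSL2 turned sign without DHN-A 3 (-0.0257) or NC-A 3 (-0.0215), and JUN without DHN-A 2 (-0.00195).

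The difference between these responses, DHN-A against NC-A minus DHN against NC, was tested as an interaction. It was called for 7 of the 8 members, 2 higher and 5 lower, where 25.7% of all tested genes were called, 13.2% higher and 12.5% lower. FOSB was at -3.43 ± 0.252 (edgeR adjusted p = 4.76e-15), FOS at -2.70 ± 0.215 (edgeR adjusted p = 6.49e-14) and ATF3 at -1.09 ± 0.0584 (edgeR adjusted p = 1.06e-19), so their response to 1,2-DHN was smaller with asparagine. JUNB was at -0.30 ± 0.0962 (edgeR adjusted p = 0.0204) and JUN at -0.20 ± 0.0524 (edgeR adjusted p = 0.00332). FOSL1 (0.22 ± 0.0515, edgeR adjusted p = 0.00111) and FOSL2 (0.21 ± 0.0583, edgeR adjusted p = 0.00496) had positive interactions. Without NC-A 1 the values were -3.24 for FOSB, -2.60 for FOS, -1.08 for ATF3, -0.284 for JUNB, -0.180 for JUN, 0.250 for FOSL1 and 0.236 for FOSL2, and all 7 were called. The call of JUNB was lost without DHN-A 1 (0.0582), DHN 3 (0.071), NC-A 2 (0.0849), NC 1 (0.0686) or NC 2 (0.0675), in a range of 0.00319 to 0.0849 over 17 alternatives. That of JUN was lost with no filter on low counts (0.0909, range 0.00103 to 0.0909). JUND was not called (0.14 ± 0.0795, edgeR adjusted p = 0.204), but was without DHN 3 (0.209, edgeR adjusted p = 0.0348); without NC-A 1 it was at 0.162.

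DHN-A against NC sets cells given both compounds against cells given neither. FOSL2 and FOS were lower and the other 6 members were not called, where 21.1% of all tested genes were called, 9.83% higher and 11.2% lower; FOS, FOSB and FOSL2 did not overlap (35.0% of tested genes). FOSL2 had 194, 194 and 205 CPM in DHN-A, against 252, 234.5 and 232 CPM in NC, a change of -0.28 ± 0.0405 (edgeR adjusted p = 8.1e-07). Its 3 treated groups all lay below NC, at 189.6 to 215 CPM over their 9 libraries. FOS had 3.31, 2.675 and 2.98 CPM in DHN-A, against 3.85, 4.68 and 3.93 CPM in NC, a change of -0.48 ± 0.142 (edgeR adjusted p = 0.012). The FOS call was lost without DHN-A 2 (0.0739) or NC 2 (0.0963) and in a fit of only these groups (0.056), in a range of 0.0105 to 0.0963 over 18 alternatives. FOSB was at -0.32 ± 0.158 (edgeR adjusted p = 0.151) and ATF3 at 0.039 ± 0.041 (edgeR adjusted p = 0.566). JUN was at 0.086 ± 0.0369 (edgeR adjusted p = 0.0936), and was called without NC 3 (0.120, edgeR adjusted p = 0.0308, 0.0308 to 0.393 over 18 alternatives).

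The members also differed in how closely their libraries agreed. The SD within groups of log2 CPM was 0.0321 for ATF3, 0.0391 for FOSL1, 0.0461 for JUN and 0.0529 for FOSL2. It was 0.0899 for JUND, 0.109 for JUNB, 0.16 for FOS and 0.189 for FOSB, the last pair having mean counts of 205 and 232 per library. The distance between the highest and lowest group mean was 4.61 for FOSB, 3.78 for FOS, 1.17 for ATF3, 0.831 for JUNB, 0.281 for FOSL2, 0.224 for JUN, 0.184 for JUND and 0.173 for FOSL1 on the log2 scale. DHN was the highest group for FOS, FOSB, JUN, JUNB, JUND and ATF3, and NC for FOSL1 and FOSL2.

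Genes with the nearest pattern were found among 12063 tested genes by the root mean square difference of log2 CPM over the 12 libraries, each gene centred on its own mean. Like group levels of the genes found thus follow from this choice. Nearest to FOS were HSPA1B, an inducible HSP70 chaperone, at 0.275, and SNAI1, a repressor of E-cadherin, at 0.357. TENT5C, a poly(A) polymerase, followed at 0.463, the small GTPase RASD1 at 0.485 and the protocadherin PCDH10 at 0.533; the median of all candidates was 1.52. HSPA1B has a near-identical neighbour, so its counts are uncertain where reads could match both. HSPA1B averaged 56.7 ± 3.50 CPM in DHN-A, 433 ± 3.74 in DHN, 44.0 ± 1.64 in NC-A and 59.6 ± 8.49 in NC.

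Nearest to ATF3 were MRPL18, a mitochondrial ribosomal protein, at 0.0563, the HSP40 cochaperone DNAJB4 at 0.0674, FAM117A at 0.0713, HSPA4L, an HSP110 chaperone, at 0.0778 and the transcription factor KLF5 at 0.0845. The median of all candidates was 0.515, and MRPL18 averaged 77.5 ± 5.22 CPM in DHN-A, 172 ± 1.35 in DHN, 73.5 ± 1.54 in NC-A and 78.0 ± 2.49 in NC. Nearest to JUN were CCN1, a matricellular immediate early gene, at 0.038, the RNA-binding protein RALY at 0.0399, the proteasome subunit PSMD8 and the RNA-binding protein DAZAP1 both at 0.0409, and RPS19BP1 at 0.0424. With a candidate median of 0.17 and small group differences, the pattern of JUN was one that many genes approach.

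**Figure D4:**
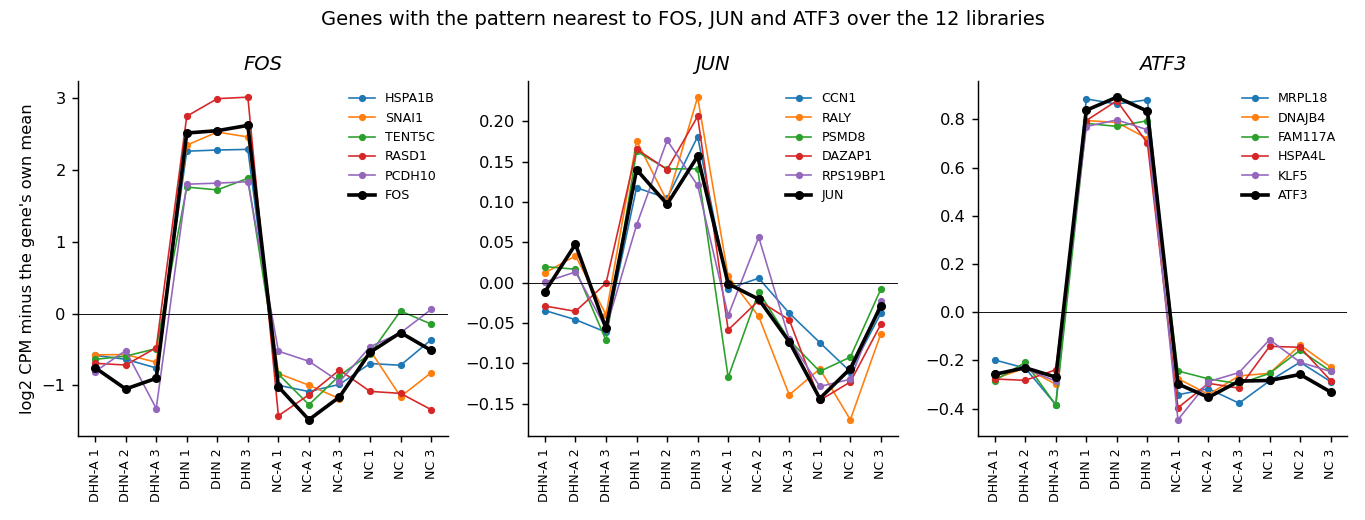
Log2 CPM minus each gene's own mean (y axis) over the 12 libraries (x axis) for FOS, JUN and ATF3 (black) and the 5 genes nearest to each (colours). FOS, ATF3 and their neighbours are highest in the 3 DHN libraries, and the y scale for JUN spans a much smaller range. The neighbours were chosen for this likeness, so it is not a result.

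Around the 8 genes, 6 lists were counted: leucine zipper partners and inhibitors, the MAP kinase cascade, regulators of the FOS and JUN promoters, feedback genes, known AP-1 targets and other immediate early genes. The median log2 change of all tested genes was 0.00729 for DHN against NC and 0.00912 for DHN-A against DHN. Of the partners and inhibitors, 10 of 16 tested rose and 3 fell in DHN against NC (median 0.40), or 81.2% called, where 38.7% of all tested genes were. In DHN-A against DHN 3 rose and 8 fell (median -0.25), or 68.8%, where 41.7% of all tested genes were called. DDIT3 (CHOP) rose by 1.04 ± 0.0941 and CREB5, a JUN partner, by 0.71 ± 0.126 in DHN against NC. BATF2, a BATF-type partner of JUN, averaged 17.1 ± 1.30 CPM in DHN-A and 9.75 ± 0.366 CPM in DHN, a rise of 0.81 ± 0.0949.

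The MAP kinase cascade was split, with 8 of 31 tested genes higher and 8 lower in DHN against NC (median -0.032), and 4 higher and 14 lower in DHN-A against DHN (median -0.094). That is 51.6% and 58.1% called, beside 38.7% (19.7% higher, 19.0% lower) and 41.7% (20.9% higher, 20.8% lower) of all tested genes, so the higher and lower counts in DHN against NC lay near those of all genes. MAP3K8, a kinase that activates the ERK branch, averaged 4.17 ± 0.11 CPM in DHN-A, 11.9 ± 0.60 in DHN, 3.74 ± 0.325 in NC-A and 5.14 ± 0.32 in NC. DHN against NC gave 1.21 ± 0.135 for it, and DHN-A against DHN gave -1.51 ± 0.134. NC-A against NC gave -0.46 ± 0.157 (edgeR adjusted p = 0.0316). MAP3K5 (ASK1), upstream of JNK and p38, fell by 0.56 ± 0.090 and MAP2K5, upstream of ERK5, by 0.49 ± 0.094 in DHN against NC. MAP2K3, an activator of p38, fell by 0.59 ± 0.0456 in DHN-A against DHN. It also fell by 0.30 ± 0.0486 in NC-A against NC (edgeR adjusted p = 8.7e-06).

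Of the promoter regulators, 8 of 16 tested rose and 2 fell in DHN against NC (median 0.16), and 1 rose and 8 fell in DHN-A against DHN (median -0.15). The called shares were 62.5% and 56.2%, beside 38.7% and 41.7% of all tested genes. MEF2D, a factor that can bind the JUN promoter, rose by 0.38 ± 0.0563, the CREB coactivator CRTC2 by 0.36 ± 0.0606 and the serum response coactivator MRTFA by 0.35 ± 0.0557 in DHN against NC. DHN-A against DHN took MEF2D down by 0.37 ± 0.055, CRTC2 by 0.44 ± 0.0596 and MRTFA by 0.39 ± 0.0546. In NC-A against NC CRTC2 (-0.22 ± 0.0645) and MRTFA (-0.20 ± 0.0588) were called lower, and MEF2D (-0.080 ± 0.059) was not called. Of the feedback genes, 12 of 17 rose and 3 fell in DHN against NC (median 0.20), and 2 rose and 11 fell in DHN-A against DHN (median -0.36). Called were thus 88.2% and 76.5%, beside the same 38.7% and 41.7% of all tested genes. ZFP36 (tristetraprolin) destabilises AU-rich messages such as that of FOS. It averaged 24.4 ± 1.08 CPM in DHN-A, 52.4 ± 3.97 in DHN, 20.7 ± 0.434 in NC-A and 28.4 ± 1.76 in NC. In NC-A against NC ZFP36 fell by 0.46 ± 0.0764 (edgeR adjusted p = 1.07e-05). The MAP kinase phosphatases DUSP8, at 0.69 ± 0.159, and DUSP5, at 0.65 ± 0.0457, rose in DHN against NC, and DUSP10 fell by 0.67 ± 0.0988 in DHN-A against DHN.

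Known AP-1 targets moved both ways, and whether AP-1 or another factor acted on them here was not tested. In DHN against NC 15 of 28 tested rose and 8 fell (median 0.20), and in DHN-A against DHN 8 rose and 14 fell (median -0.12). FOSL1 and JUN belong to this list too. Its called shares were 82.1% and 78.6%, where all tested genes had 38.7% (19.0% lower) and 41.7% (20.9% higher). HBEGF, a ligand of the EGF receptor, averaged 22.3 ± 1.19 CPM in DHN-A, 58.9 ± 0.101 in DHN, 22.8 ± 0.77 in NC-A and 20.9 ± 1.34 in NC. HMOX1, the inducible heme oxygenase, rose by 2.08 ± 0.0583 in DHN against NC. The collagenase MMP13 went the other way, at 3.41 ± 0.373 CPM in DHN-A, 1.24 ± 0.207 in DHN, 4.62 ± 0.58 in NC-A and 3.48 ± 0.553 in NC. The cytokine IL11 averaged 68.8 ± 5.77 CPM in DHN-A, 185 ± 6.21 in DHN, 54.15 ± 2.55 in NC-A and 151 ± 10.9 in NC. It fell by 1.43 ± 0.0536 in DHN-A against DHN and by 1.48 ± 0.058 in NC-A against NC, and its interaction was not called (0.058 ± 0.0789, edgeR adjusted p = 0.675). In DHN-A against NC-A 9 of the 28 were called, 7 higher and 2 lower, or 32.1%, where 2.10% of all tested genes were called. The other 5 lists had 0 to 2 calls each there, of 16 to 31 tested. Without NC-A 1 the targets had 7 calls, 6 higher and 1 lower, and the other lists 0 to 2.

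Other immediate early genes were mostly higher in DHN: 16 of 19 tested rose and 2 fell in DHN against NC (median 0.925), and 2 rose and 15 fell in DHN-A against DHN (median -0.54). Called shares of 94.7% and 89.5% stood beside 38.7% and 41.7% of all tested genes. EGR1, a zinc finger factor, averaged 33.4 ± 0.477 CPM in DHN-A, 121.5 ± 2.61 in DHN, 27.5 ± 1.72 in NC-A and 23.2 ± 1.55 in NC. ARC, a regulator of synapses in neurons, averaged 5.11 ± 0.661 CPM in DHN-A, 58.2 ± 4.59 in DHN, 1.15 ± 0.38 in NC-A and 0.858 ± 0.172 in NC. ARC, by 2.15 ± 0.189 (edgeR adjusted p = 1.33e-11), and EGR1, by 0.28 ± 0.0636 (edgeR adjusted p = 0.00664), were called higher in DHN-A against NC-A. The nuclear receptors NR4A3 and NR4A2 fell by 2.20 ± 0.16 and 2.12 ± 0.179 in DHN-A against DHN. IER2 was not called in DHN against NC (0.079 ± 0.0729), while KLF6 (-0.26 ± 0.038) and MCL1 (-0.33 ± 0.0369) fell; these were named after their values were seen.

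**Figure D5:**
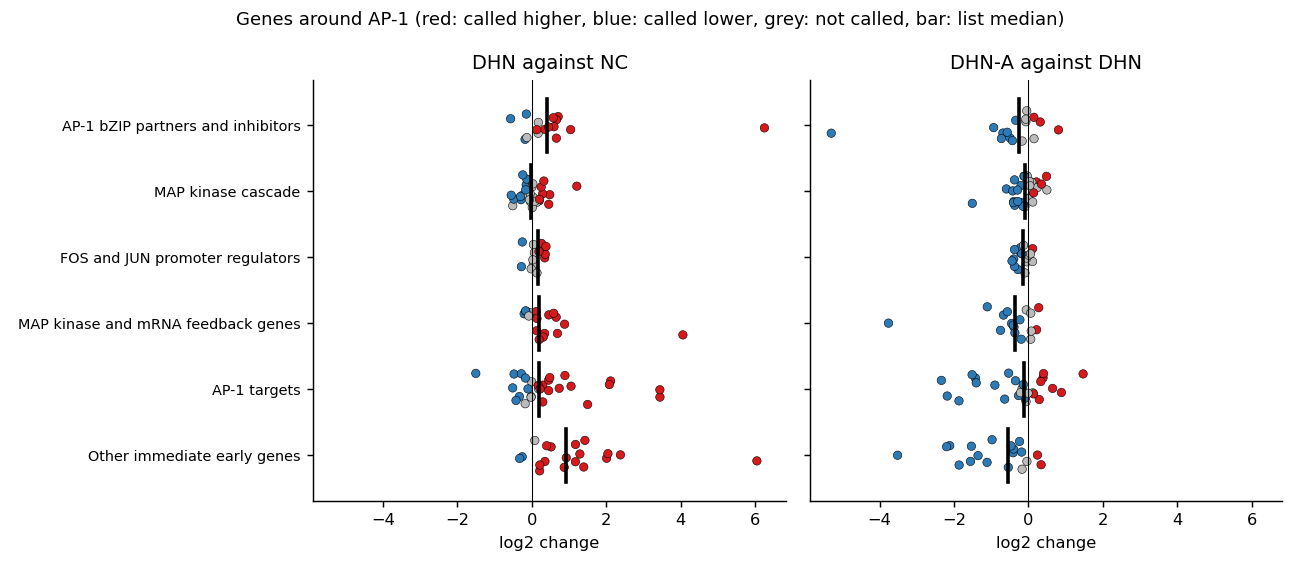
Log2 change (x axis) of every tested gene in the 6 lists (y axis), in a panel each for DHN against NC and DHN-A against DHN; colours give the calls and bars the list medians. Medians lie right of 0 in DHN against NC, except for the MAP kinase cascade at -0.032, and left of 0 in DHN-A against DHN.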

How the data were processed

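Per the labels, RNA was sequenced with a strand-marking library kit. The authors deposited whole-number counts per gene symbol, not normalised, with a gene length. Bowtie and hg38 are named in the submitters' processing notes. The Bowtie version, counting tool, strand setting and annotation were not given in the sources used here. In such counting, reads shared by similar or overlapping genes can be lost or split.

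Genes passing edgeR's filterByExpr (17889) were fitted with 1 mean per group over 12 libraries (edgeR 4.0.16, R 4.3.3, TMM scaling, robust quasi-likelihood), with Benjamini-Hochberg adjustment over all tested genes and a threshold of 0.05. Standard errors derive from the fold change and its test. CPM uses the scaled library sizes; TPM uses the deposited lengths. Other settings tried were DESeq2 1.42.0, limma-voom (limma 3.58.1), size factors by relative log expression, no filter, a replicate block, fits of only the 2 groups at issue, and leaving out libraries in turn. The procedure was tested on simulated data. Replicates of a group differed beyond counting noise (mean chi-square per gene of 1.74 to 4.24 per pair).

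The members, lists and tests were chosen with earlier results of these data known. Genes named are the members, up to 3 called genes per list with the largest change and at least 50 mean counts in the first 2 comparisons, and the 5 nearest in pattern to FOS, JUN and ATF3; 1 gene that this rule names is not reported here. Coordinates are GRCh38; promoter sequences are from RefSeq (GRCh38.p14), and overlaps from GENCODE release 29.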

Additional observations from a re-analysis of the deposited data

Results flagged for a closer look

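The response to 1,2-DHN differed between cells with and without asparagine for 7 of the 8 members, by edgeR's test of the interaction (DHN-A against NC-A minus DHN against NC), which was called for 25.7% of all tested genes. The difference was -3.43 for FOSB, -2.70 for FOS and -1.09 for ATF3 on the log2 scale. It was -0.299 for JUNB and -0.197 for JUN, and 0.216 for FOSL1 and 0.210 for FOSL2. The calls of JUNB and JUN depended on single libraries or settings, as given with their values above.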

How the results depend on the processing

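The member counts in DHN against NC (7) and DHN-A against DHN (6) were the same under every alternative run. Left-out libraries gave 4 to 6 members called in NC-A against NC, 0 to 2 in DHN-A against NC-A, 1 to 3 in DHN-A against NC and 6 to 7 for the interaction. In DHN-A against NC-A the member count was 0 with limma-voom or the replicate block and 2 with no filter, against 1, and in DHN-A against NC it was 1 with only the groups compared, against 2. Over all genes, DHN-A against NC-A gave 375 calls, and 143 to 426 with a library left out. With no filter the split of higher and lower calls was 271 and 127 there against 144 and 231, 1044 and 2143 against 1668 and 1944 in NC-A against NC, and 2616 and 1545 against 2361 and 2231 for the interaction.

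Signs that turned with a library left out were of members not called. JUND ranged from -0.0471 to 0.063 in DHN against NC (below 0 without DHN 3 or NC 1, at -0.0103), from -0.0937 to 0.0387 in DHN-A against DHN (above 0 without DHN 3 or DHN-A 3, at 0.0275) and from -0.0697 to 0.0514 in DHN-A against NC. JUNB ranged from -0.083 to 0.0217 in the last comparison. In DHN-A against NC-A, FOSL2 ranged from -0.0257 to 0.0286 and JUN from -0.00195 to 0.0467. In DHN-A against NC-A the partner list had 2 calls with DESeq2 or only the groups compared, against 0, the MAP kinase list 0 with limma-voom against 1, the promoter regulators 1 with no filter or only the groups compared against 0, and the AP-1 targets 5 with the replicate block against 9. With a library left out, the calls in DHN-A against NC-A were 0 to 2 for the partners, 0 to 2 for the MAP kinase list, 0 to 1 for the promoter regulators, 5 to 10 for the AP-1 targets and 1 to 3 for the other immediate early genes, and 1 to 5 for the promoter regulators in NC-A against NC. The cause of these changes was not tested, and the interaction has no value with only the groups compared.

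Deviations of same-numbered libraries from their group means were weakly correlated (-0.176 to 0.229). With 3 libraries a group this cannot show whether the numbers pair them. With the replicate block 6805 genes were called in DHN against NC, against 6919 without it, and 3458 in NC-A against NC, against 3612. Low counts limit FOS and FOSB outside DHN.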
